A study of Mus musculus with 40 samples.

Results

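Insulin signalling in the liver starts at the insulin receptor, a tyrosine kinase that phosphorylates the adaptor proteins IRS1 and IRS2. The adaptors recruit PI3-kinase, whose lipid product brings the AKT kinases to the membrane, and AKT in turn phosphorylates FOXO transcription factors and keeps them out of the nucleus. In the fasted liver, when insulin is low, nuclear FOXO proteins act on genes of glucose production and on Irs2. SMRT and NCoR are related corepressors that repressors such as BCL6 and unliganded nuclear receptors bring to DNA, and HDAC3 is the histone deacetylase that works with them.

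The 10 genes described here are Insr, Irs1, Irs2, Pik3r1, Pik3ca, Akt1, Akt2, Foxo1, Foxo3 and Trib1, out of 21938 protein-coding genes. Trib1 is not among the steps described above. All 10 were chosen by name as a set of insulin signalling genes, with earlier results of these data known. The contrasts with all genes given below are therefore descriptions. All peaks of SMRT, NCoR and HDAC3 whose centre lay inside one of these genes or within 100 kb of either end were collected, which gave 46 of 10654 SMRT peaks (0.432%), 140 of 35138 NCoR peaks (0.398%) and 59 of 14462 HDAC3 peaks (0.408%). The plot of peak positions by gene shows every NCoR peak of this set.

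The study asked which genes the repressor BCL6 and the fatty acid sensor PPARα control in the fed and fasted liver. Its samples include 40 chromatin immunoprecipitation (ChIP-seq) and input libraries, of which 9 lie behind the peak lists used here, 3 for each cofactor. These 9 came from livers of male C57BL/6 mice that were Bcl6 fl/fl, carrying loxP-flanked Bcl6 without the albumin-driven Cre, and that had free access to chow, and no age was given in the sources used here. The other 31 libraries, among them those of livers without Bcl6 in hepatocytes, were not analysed here. Each list pools its 3 libraries and gives only the chromosome, start and end of each peak, so no peak height, replicate value or sequencing depth stands behind the counts below. Whole liver was used, so a peak may come from any of its cell types, and the lists hold no expression values against which the tissue could be checked.

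**Figure D1:**
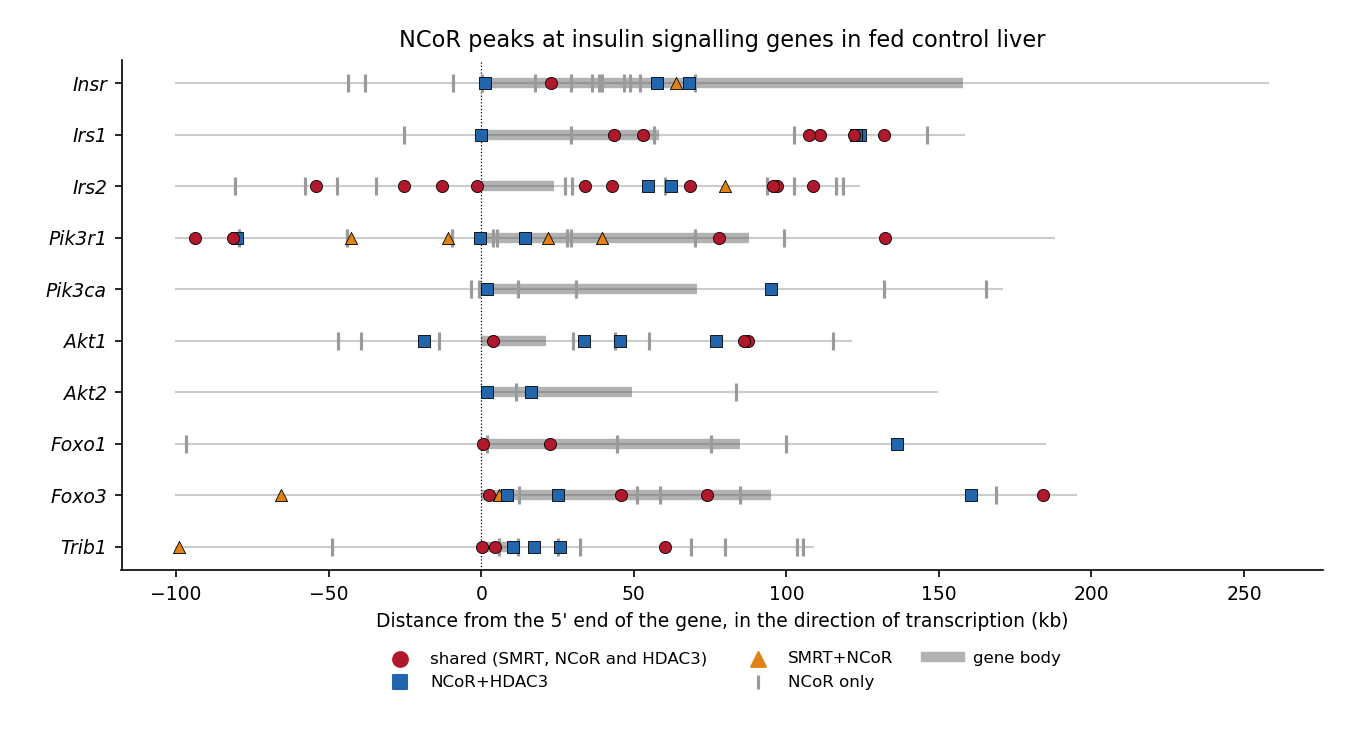
Position of each NCoR peak (x axis, kb from the 5′ end of the gene in the direction of transcription) at the 10 genes (y axis). Thick grey bars are gene bodies and thin lines the 100 kb on both sides; red circles are shared sites, blue squares NCoR+HDAC3, orange triangles SMRT+NCoR and grey ticks NCoR only. Irs2 has 10 shared sites on both sides of a gene body with no peak in it, whereas 13 of the 18 peaks of Insr are grey ticks.

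An NCoR peak was called shared when a SMRT and an HDAC3 peak centre both lay within 200 bp of its own centre. Because peaks of these lists have no height, the sequence under them is the other thing that can be shown. The central 100 bases of the shared peak nearest to the gene's own transcription start site (TSS) are given for the 7 genes that have one assigned to them, in order of the pathway, skipping peaks that overlap an untranslated region. A second peak is shown for Irs2 and for Pik3r1, where a shared peak held a STAT/BCL6 or FOX match. All sequences are the plus strand of GRCm38 (mm10), read from RefSeq's copy of the assembly, and the number after the gene name is the distance in bp of the peak centre from the nearest TSS of that gene (negative upstream). Capitals mark a match to 1 of the 12 motifs searched.
Insr +22896 (chr8:3256671-3256770): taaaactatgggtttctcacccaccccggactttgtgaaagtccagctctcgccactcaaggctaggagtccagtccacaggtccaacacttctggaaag
Irs2 -1394 (chr8:11009802-11009901): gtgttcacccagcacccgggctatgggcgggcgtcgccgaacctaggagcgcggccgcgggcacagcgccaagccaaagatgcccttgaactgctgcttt
Irs2 +42978 (chr8:10965430-10965529): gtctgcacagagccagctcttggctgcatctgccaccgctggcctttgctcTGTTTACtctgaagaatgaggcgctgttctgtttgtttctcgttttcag
Pik3r1 +2298 (chr13:101690282-101690381): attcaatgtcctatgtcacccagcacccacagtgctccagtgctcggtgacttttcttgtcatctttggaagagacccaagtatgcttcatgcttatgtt
Pik3r1 -81403 (chr13:101849570-101849669): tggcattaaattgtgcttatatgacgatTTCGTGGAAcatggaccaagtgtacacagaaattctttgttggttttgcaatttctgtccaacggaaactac
Akt1 +426 (chr12:112671088-112671187): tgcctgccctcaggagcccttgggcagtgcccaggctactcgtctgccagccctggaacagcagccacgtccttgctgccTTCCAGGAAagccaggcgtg
Foxo1 +22688 (chr3:52290974-52291073): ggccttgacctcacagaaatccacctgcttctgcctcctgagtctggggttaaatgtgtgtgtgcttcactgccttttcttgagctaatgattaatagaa
Foxo3 +2378 (chr10:42274268-42274367): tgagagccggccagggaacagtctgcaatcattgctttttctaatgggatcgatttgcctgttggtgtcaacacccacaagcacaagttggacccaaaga
Trib1 +59963 (chr15:59708566-59708665): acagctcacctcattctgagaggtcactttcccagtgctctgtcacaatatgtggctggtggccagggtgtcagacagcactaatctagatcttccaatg
Of these 9 stretches 3 held a match, STAT/BCL6 at Pik3r1 and Akt1 and FOX at Irs2, and the other 6 held none of the letters searched. The second peaks of Irs2 and Pik3r1 were picked for their match. Among the stretches picked by distance to the TSS, only that of Akt1 held one.

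The cofactor classes at the 10 genes had shares close to those of the whole list. Of the 140 NCoR peaks, 33 were shared sites, a share of 23.6% (16.8 to 31.5%, exact Clopper-Pearson 95% interval), beside 24.9% of all NCoR peaks. Another 72 had neither partner, 51.4% (42.8 to 60.0%) beside 56.1% in the whole list. NCoR with HDAC3 but no SMRT made up 26 peaks, 18.6% (12.5 to 26.0%) beside 14.8%, and NCoR with SMRT but no HDAC3 made up 9, 6.43% (2.98 to 11.9%) beside 4.16%. Every interval held the share of the whole list. The intervals cover counting error only, and neighbouring peaks at a gene are not independent of each other.

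The same classes were seen from the side of the smaller lists. Of the 46 SMRT peaks, 33 were shared (71.7%, 56.5 to 84.0%), beside 81.9% of the whole list, and 4 had no partner (8.70%, 2.42 to 20.8%), beside 3.35%. No HDAC3 peak stood without NCoR: 0 of 59, which allows a share of up to 5.08% by the limit of 3 counts (exact upper end 6.06%), beside 3.53% of the whole HDAC3 list without NCoR. Where peaks were paired they lay almost on top of each other, with a median distance between centres of 21.5 bp for NCoR and SMRT (42 pairs) and 24 bp for NCoR and HDAC3 (59 pairs), beside 24 and 23 bp in the whole lists. Among pairs with an NCoR peak, the widest that still counted was 134 bp apart, at Foxo1. The closest such pair that did not count was a SMRT peak 210 bp from an NCoR peak in the Pik3ca window. The next was 355 bp apart, at the Pik3r1 promoter.

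The number of sites per window was higher at these genes than at the median gene. All 10 genes had an NCoR peak in their window, beside 80.7% of all protein-coding genes, and 8 of 10 had a shared site, beside 52.9%. The median was 14 NCoR peaks and 3 shared sites per window for the 10 genes, and 5 and 1 for all genes. Windows of long genes are longer, so the counts were also set per 100 kb of window, which gave a median of 5.23 NCoR peaks and 1.36 shared sites for the 10 genes and 1.91 and 0.349 for all genes. The genes were spread widely within this range, from 4 NCoR peaks at Akt2 to 24 at Irs2, and from 0 shared sites at Pik3ca and Akt2 to 10 at Irs2. The plot of site densities places each gene among all protein-coding genes.

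**Figure D2:**
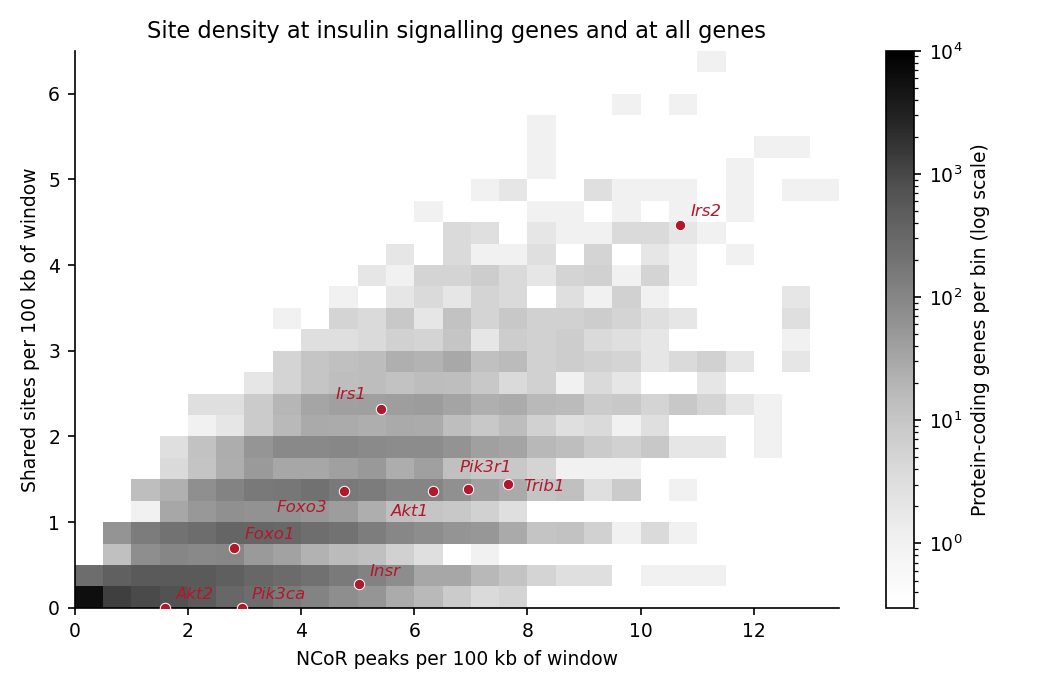
NCoR peaks (x axis) and shared sites (y axis) per 100 kb of window for the 10 genes (red points) over all 21938 protein-coding genes (grey squares, with the number of genes per bin on a log scale). Irs2 lies at 10.7 NCoR peaks and 4.47 shared sites per 100 kb, towards the upper end for all genes, while Pik3ca and Akt2 lie on the axis at 0 shared sites.

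Peaks in a window need not belong to the gene in its middle. Each peak was therefore given to whichever protein-coding gene had its TSS closest. The study annotated peaks to the closest TSS with HOMER, and the sources used here do not say which gene types it counted. Of the 140 NCoR peaks, 104 stayed with the named gene (74.3%, 66.2 to 81.3%), and of the 33 shared sites 24 did (72.7%, 54.5 to 86.7%). At least 1 shared site was nearest to 7 of the 10 genes, beside 20.9% of all protein-coding genes. This count rises with the stretch of sequence nearest to a gene's TSS, whose median over all genes was 47.1 kb. Of the 7 genes, Akt1 had a stretch of 18.3 kb and the others 230 kb or more. Whether the count exceeds that of genes with similar stretches was not tested. Irs2, Pik3r1 and Trib1 kept every NCoR peak of their windows, and Irs1 and Akt1 kept 1 each of 14. When genes of every annotated type could take a peak, non-coding genes and pseudogenes included, only 40 NCoR peaks and 11 shared sites stayed with the 10 genes, so the assignment depends on which transcripts are counted.

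Binding close to the TSS was common in this set. At 8 of the 10 genes an NCoR peak lay within 1 kb of a TSS of the gene itself, beside 21.7% of all protein-coding genes. Every annotated TSS of a gene counted, internal ones such as those at Akt1 and Akt2 included. The lists hold no expression values, so genes silent in liver could not be left out of any share over all genes. The nearest peak was 120 bp away at Trib1, 179 bp at Insr, 188 bp at Irs1, 426 bp at Akt1 and 435 bp at Foxo1. It was 561 bp away at Pik3r1, 574 bp at Pik3ca and 840 bp at Akt2. The exceptions were Irs2 at 1394 bp and Foxo3 at 2378 bp. Of the 8 peaks within 1 kb, 3 were shared sites (Akt1, Foxo1 and Trib1), 3 were NCoR+HDAC3 (Irs1, Pik3r1 and Akt2) and 2 were NCoR only (Insr and Pik3ca).

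Insr, which encodes the insulin receptor (chr8:3122061-3279617, minus strand), had many NCoR peaks, and most of them had no partner. Its window held 18 NCoR, 2 SMRT and 4 HDAC3 peaks. Of the NCoR peaks 13 had no partner (72.2%, beside 56.1% of all NCoR peaks), 3 had HDAC3, 1 had SMRT and 1 was shared. The shared site made up 5.56%, beside 24.9% of all NCoR peaks, the lowest share among the 8 genes with any. Both shares rest on 18 peaks, and no interval was computed for them. NCoR peaks numbered 5.03 per 100 kb, a density above that of 86.3% of genes, and shared sites 0.280 per 100 kb, above that of 48.5%. Within this window the gene thus stood high for NCoR and near the middle for shared sites. The stretch nearest to its TSS spans 3320 kb with 0.482 NCoR peaks and 0.0302 shared sites per 100 kb, below the 1.29 and 0.320 over all genes, but 3000 kb of it are unknown bases at the start of the chromosome. Over the remaining 317 kb there were 5.05 NCoR peaks and 0.316 shared sites per 100 kb. A430078G23Rik took 2 of the 18 peaks.

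Within Insr the peaks sat in the first part of the transcript. Of 15 NCoR peaks inside the gene, 10 lay in intron 2, including the only shared site, 22896 bp from the TSS. The most distal peak lay 70179 bp into the gene, in intron 3, and neither the remaining gene body nor the 100 kb beyond its 3′ end held an NCoR peak. The peak 179 bp from the TSS, in exon 1, had no partner, and an NCoR+HDAC3 peak followed at 1145 bp. All 18 peaks had another NCoR peak within 10 kb (76.4% over the 10 genes and 62.1% in the whole list).

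**Figure D3:**
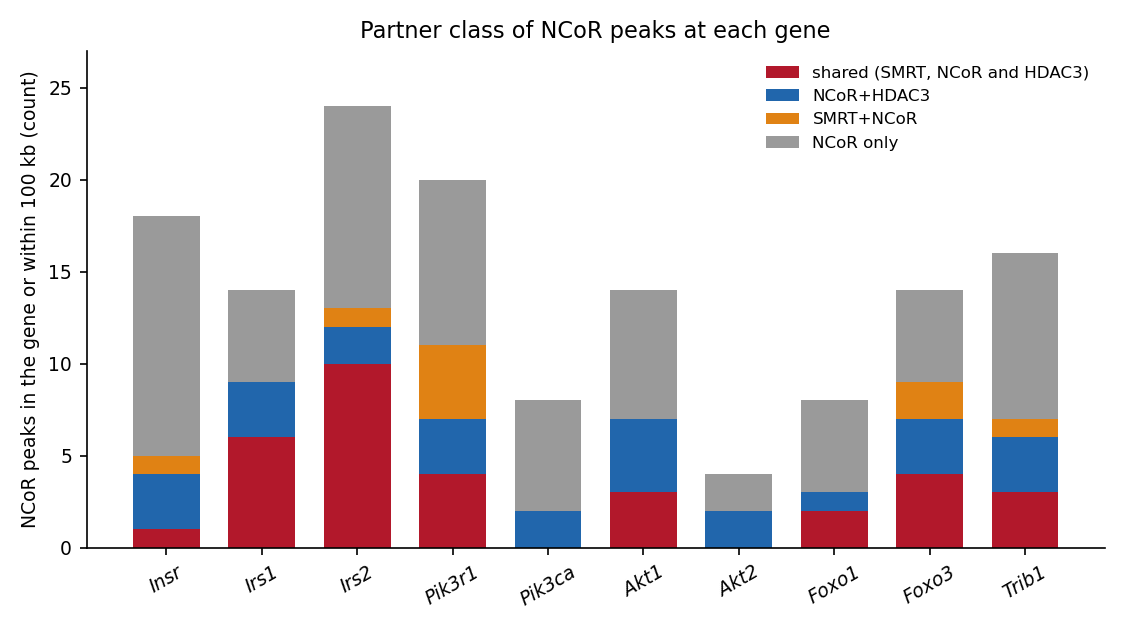
Number of NCoR peaks in each gene or within 100 kb of it (y axis) at the 10 genes (x axis), divided by partner class. Irs2 has the most peaks (24) and the most shared sites (10), Insr 18 peaks with 1 shared site, and Pik3ca and Akt2 none.

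Irs1 and Irs2 encode the adaptors that carry the signal from the receptor. They had the highest shares of shared sites of the 10 genes, 42.9% of 14 NCoR peaks at Irs1 and 41.7% of 24 at Irs2. The share over all NCoR peaks was 24.9%. Both shares rest on few peaks, no interval was computed for them, and whether they differ from the whole list was not tested. The Irs1 window (gene at chr1:82233101-82291416, minus strand) held 6 shared sites, 3 NCoR+HDAC3 and 5 NCoR-only peaks, or 2.32 shared sites per 100 kb, more than 96.0% of genes. Of the shared sites, 2 lay in intron 1, at 43677 and 52957 bp from the TSS, and 4 lay 49035 to 73702 bp beyond the 3′ end of the gene. The promoter itself carried an NCoR+HDAC3 peak, 188 bp upstream of the TSS.

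None of these 6 shared sites was assigned to Irs1. Gm9747, a predicted gene of 2.82 kb that lies over the 3′ end of Irs1 on the opposite strand (chr1:82233112-82235933), took 12 of the 14 NCoR peaks and all 6 shared sites, the intronic ones included. Rhbdd1 took 1 peak, and the promoter peak alone stayed with Irs1. This result rests on the GENCODE release used here, which lists Gm9747 as protein-coding.

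Irs2 (chr8:10984681-11008458, minus strand) had the densest cofactor binding of the set. Its window held 24 NCoR, 11 SMRT and 12 HDAC3 peaks, which formed 10 shared sites, 2 NCoR+HDAC3, 1 SMRT+NCoR and 11 NCoR-only peaks. With 4.47 shared sites per 100 kb it was reached or passed by 30 of the 21938 genes, itself included, and with 10.7 NCoR peaks per 100 kb by 56. None of the 24 NCoR peaks lay inside the gene, a state shared by 64.5% of all genes. Of the peaks, 16 lay downstream and 8 upstream, all between genes, and Irs2 was the only protein-coding gene that overlapped the window.

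The shared sites of Irs2 ran along the whole window. Upstream they lay 1394, 12899, 25276 and 54078 bp from the TSS. Downstream they lay at 34123, 42978, 68359, 95768, 96910 and 108612 bp. The gene was the nearest TSS for all of them and for 3 more outside the window, 128.8 to 153.7 kb away, and 13 shared sites in all was a number that 5 genes reached, itself included. The stretch of sequence nearest to the Irs2 TSS is 520 kb long, longer than that of 95.3% of genes, and over it shared sites numbered 2.50 per 100 kb, beside 0.320 over all genes.

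Pik3r1 encodes the regulatory subunit of PI3-kinase that docks on the adaptors (chr13:101680563-101768217, minus strand). Its window held 20 NCoR, 9 SMRT and 7 HDAC3 peaks, and all 4 classes occurred among the NCoR peaks, with 4 shared, 3 NCoR+HDAC3, 4 SMRT+NCoR and 9 NCoR-only peaks. The 4 SMRT+NCoR peaks were 4 of the 9 such peaks at all 10 genes. They lay in intron 2 (2 peaks) and 11049 and 42671 bp upstream. The shared sites lay 93955 and 81403 bp upstream, in intron 8 near an internal TSS, and 56624 bp downstream of that TSS.

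At the Pik3r1 promoter SMRT and NCoR were listed at separate places. A SMRT peak without partner lay 206 bp upstream of the TSS, and an NCoR+HDAC3 peak lay 561 bp upstream, 355 bp from it. The pair did not count as shared at 200 bp and did at 400 bp. Upstream, 3 NCoR peaks at 79392, 80157 and 81403 bp formed a cluster in which the first had no partner, the second had HDAC3 and the third was shared, with the STAT/BCL6 match printed above.

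Pik3r1 was the nearest gene for more NCoR peaks and more shared sites than any other protein-coding gene. It was the nearest TSS for 46 NCoR peaks and 17 shared sites over the whole genome, and no other gene reached either number. Of these, 26 NCoR peaks and 13 shared sites lay outside the 100 kb window, the shared ones 109.1 to 376.1 kb from a TSS, 7 upstream and 6 downstream. The stretch nearest to its TSSs is 968 kb, longer than that of 98.3% of genes. Per 100 kb of it there were 4.75 NCoR peaks and 1.76 shared sites, beside 1.29 and 0.320 over all genes.

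Pik3ca encodes a catalytic subunit of PI3-kinase (chr3:32397671-32468486, plus strand) and differed from its regulatory partner. Its window held 8 NCoR, 2 SMRT and 2 HDAC3 peaks and no shared site, as was the case for 47.1% of all genes. The NCoR peak 574 bp upstream of the TSS had no partner, and the only NCoR+HDAC3 peak assigned to the gene lay 1912 bp into it, in intron 1. Of the 8 NCoR peaks Mfn1 took 2 and Kcnmb3 took 1. Both SMRT peaks stood without partner, near Kcnmb3, and the first of them missed an NCoR+HDAC3 peak by 10 bp, at a distance of 210 bp. At a reach of 400 bp that peak counted as shared and the window of Pik3ca held 0.369 shared sites per 100 kb.

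Akt1 and Akt2 encode the kinases that PI3-kinase activates, Akt2 being the main form in insulin-responsive tissues. The Akt1 window (gene at chr12:112653821-112674884, minus strand) held 14 NCoR, 4 SMRT and 7 HDAC3 peaks with 3 shared sites, but 8 protein-coding genes overlap it, Akt1 included. Its neighbours took 13 of the 14 NCoR peaks, Inf2 the most with 4, of which 2 were shared. The peak that stayed was a shared site in intron 2, 426 bp from an internal TSS, with a STAT/BCL6 match 34 bp from its centre, within the sequence printed above. Akt1 was thus assigned a single NCoR peak, and this peak was shared.

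Akt2 (chr7:27591552-27640826, plus strand) had the fewest peaks of the set, 4 NCoR, 2 HDAC3 and no SMRT peak. The 2 HDAC3 peaks paired with NCoR, 1629 bp from a TSS at the start of the gene and 840 bp upstream of an internal one. With 1.60 NCoR peaks per 100 kb, Akt2 was above 45.5% of genes, so it lay near the middle of the genome. Map3k10 took 1 of the 4 peaks.

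Foxo1 and Foxo3 encode the transcription factors that AKT phosphorylates. The Foxo1 window (gene at chr3:52268336-52353221, plus strand) held 8 NCoR, 2 SMRT and 3 HDAC3 peaks, with 2 shared, 1 NCoR+HDAC3 and 5 NCoR-only peaks. The shared sites lay at the start of the gene, 435 bp from the TSS in exon 1, and 22688 bp from it in intron 1. At 2.81 NCoR peaks and 0.702 shared sites per 100 kb, Foxo1 was above 62.6% and 68.3% of genes. Maml3 took 1 of the 8 peaks.

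The 100 kb window left out most sites that were nearest to Foxo1. Over the whole genome it was the nearest gene for 23 NCoR peaks and 12 shared sites, a number of shared sites that 9 genes reached, itself included. Of these, 16 NCoR peaks and 10 shared sites lay outside the window, and all 10 shared sites were downstream, 227.2 to 354.4 kb from the TSS. The stretch nearest to its TSS spans 456 kb, with 2.63 shared sites per 100 kb. Over all 10 genes, 57 NCoR peaks and 28 shared sites outside the windows were nearest to 1 of them, the shared ones at Irs2, Pik3r1, Foxo1 and Trib1.

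Foxo3 (chr10:42181841-42276755, minus strand) carried most of its peaks inside the gene. Of 14 NCoR peaks in its window 10 were intragenic, and all but 1 of these lay in intron 2. Shared sites lay 2378, 45646 and 73861 bp from the TSS in that intron, and a further one, beyond the 3′ end, was nearer to Armc2. The other peaks were 3 NCoR+HDAC3, 2 SMRT+NCoR and 5 NCoR only. Foxo3 had 4.75 NCoR peaks and 1.36 shared sites per 100 kb, above 83.7% and 84.7% of genes, and so ranked above Foxo1 by either count within 100 kb.

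Trib1 encodes a pseudokinase that brings the transcription factor C/EBPα to a ubiquitin ligase and is known for its part in liver lipid metabolism (chr15:59648350-59657099, plus strand). The gene spans 8.75 kb, the shortest of the set, and its window held 16 NCoR, 4 SMRT and 6 HDAC3 peaks, all of the NCoR peaks nearest to Trib1. The shared sites lay 120 bp upstream of a TSS, 4369 bp downstream of it within the gene, and at 59963 bp. At 7.66 NCoR peaks per 100 kb Trib1 stood above 97.3% of genes, and at 1.44 shared sites above 87.0%. Its farthest upstream peak, 99.2 kb from the gene, was the last to fall inside a window, and the first NCoR peak outside any window lay 100.7 kb from Akt2.

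Position along the genes was described over the whole set. Inside the 10 genes NCoR peaks numbered 53 over 657 kb (8.07 per 100 kb), in the upstream flanks 32 (3.20 per 100 kb) and in the downstream flanks 55 (5.50 per 100 kb). The same densities were not computed over all genes, so whether this order is particular to the set was not tested. By annotation, 68 of the 140 NCoR peaks were intergenic (48.6%, 40.0 to 57.2%), beside 37.2% of all NCoR peaks, and 52 were intronic (37.1%, 29.1 to 45.7%), beside 48.4%. Promoters of any protein-coding gene, from 1000 bp upstream to 100 bp downstream of a TSS, held 12 (8.57%, 4.51 to 14.5%), beside 10.4%. Several of these 12 lay at promoters of neighbours in the windows, such as Kcnmb3, Mfn1, Inf2 and Map3k10. The intergenic share lay above and the intronic share below that of the whole list, and 24 of the 68 intergenic peaks were those of Irs2. Of the 33 shared sites, 20 were intergenic, 9 intronic, 2 in promoters and 2 in exons with untranslated sequence. The 2 promoters were those of Trib1 and of Inf2, a neighbour in the Akt1 window.

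The sequence under the peaks was searched for 12 short motifs, on both strands, in the central 200 bp of each NCoR peak. The motifs were STAT/BCL6 (TTCNNNGAA), FOX (TGTTTAC), the core of the insulin response sequence (CAAAACA), an HNF4 half-site (CAAAGTCCA), C/EBP (TTGCGCAA, TTGTGCAA, TTATGCAA or TTACGCAA), HNF6/CUX2 (TATTGAT or TATCGAT), ETS (CCGGAAGT), ERR (TCAAGGTCA), the RORE core (TAGGTCA), the E-box (CACGTG), DR1 and the glucocorticoid receptor palindrome. No string contained another, except that a DR1 match can hold the HNF4 half-site. At least 1 match was found in 59 of 140 peaks (42.1%), beside 41.0% of all NCoR peaks. The share for FOX, the binding letters of the FOXO and FOXA families, was 8.57% (4.51 to 14.5%), beside 7.74% of all NCoR peaks and 2.92% of windows 2 kb to either side of them. STAT/BCL6 matches were found in 7.14% (3.48 to 12.7%), beside 7.10% and 6.32%.

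The insulin response core and C/EBP had the highest shares at these genes. The insulin response core was found in 17 peaks (12.1%, 7.24 to 18.7%), beside 7.21% of all NCoR peaks and 7.77% of the flanks. C/EBP matches were found in 13 (9.29%, 5.04 to 15.4%), beside 5.52% and 1.22%. The lower end of the interval was just above the share of all peaks for the insulin response core and just below it for C/EBP. These intervals were not adjusted for the number of motifs searched. With the central 100 bp alone the insulin response core was found in 6.43%, beside 3.61% of all NCoR peaks, and among shared sites alone in 6.06% (0.743 to 20.2%), beside 7.66% of all shared sites. RORE core matches were found in 3 peaks (2.14%, 0.444 to 6.13%), beside 5.60%, and HNF4 half-sites in 1 (0.714%, 0.0181 to 3.92%), beside 2.09%.

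**Figure D4:**
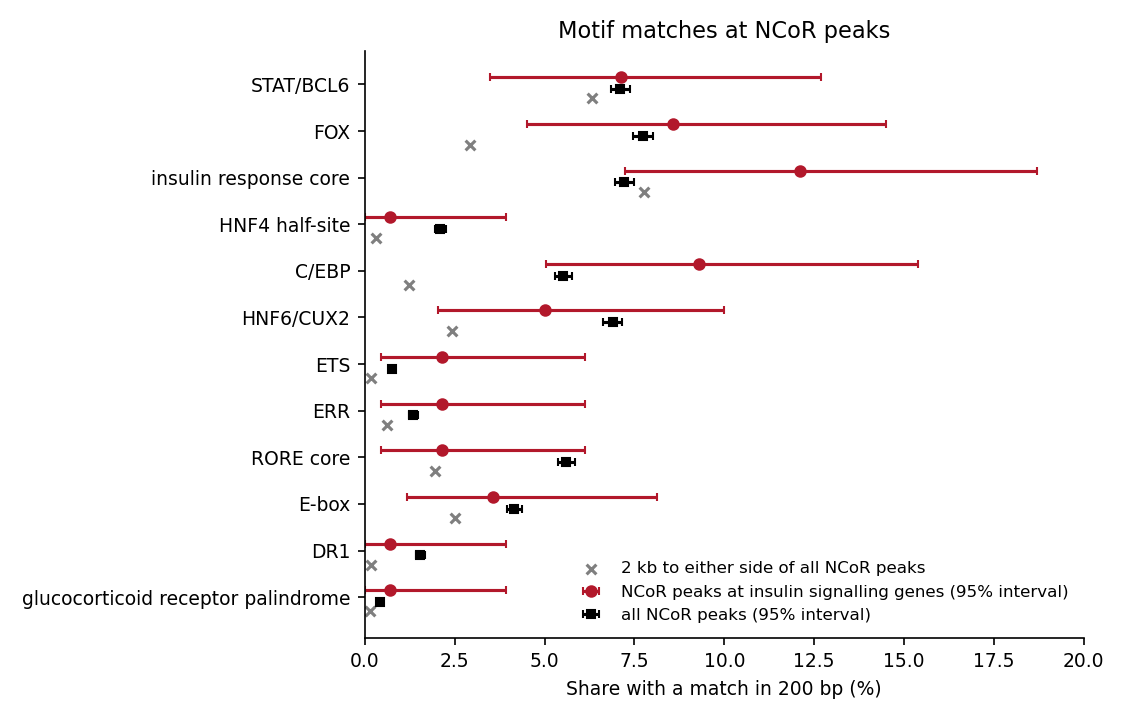
Share of NCoR peaks with a motif match in the central 200 bp (x axis, %) for 12 motifs (y axis). Red circles are the 140 peaks at the 10 genes, black squares all 35138 NCoR peaks, both with exact 95% intervals, and grey crosses the windows 2 kb to either side. The red intervals hold the black squares for 11 motifs, the insulin response core being the exception at 12.1% beside 7.21%. The intervals are not adjusted for the 12 motifs.

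The matches were spread over the genes to different degrees. Irs2, with 24 of the 140 peaks, held 5 of the 12 peaks with a FOX match and 4 of the 10 with a STAT/BCL6 match, and Pik3r1, with 20 of the 140, held another 4 of the latter. Insr, with 18 of the 140, held 5 of the 17 peaks with the insulin response core. These counts were picked as among the highest after the values were seen. They rest on 4 or 5 peaks each, and no interval was computed for a single gene. FOX matches were found at 7 of the 10 genes, C/EBP matches at 9, and the 7 HNF6/CUX2 matches lay at 7 genes. Such counts of genes rise with the number of peaks per window. They were not computed over all genes, so no conclusion is drawn from them. HNF6/CUX2 matches were found in 7 of the 140 peaks, beside 6.89% of all NCoR peaks. Among the 33 shared sites, 11 held 15 matches in their central 200 bp. The 12 matches not yet printed are shown here within 30 bases, again the plus strand of GRCm38 with the match in capitals, because they show which factor letters lie at which gene.
Insr +22896, FOX: ctgaatgatcaGTAAACAtgttttcaaagg
Irs1 +43677, E-box: agcccctgtgtgCACGTGtgcacatgtgca
Irs2 +108612, C/EBP: atgaatctggaTTGCGCAAtaggtccccac
Irs2 +42978, STAT/BCL6: tggttctctaTTCCAGGAAggaaaaaaaaa
Irs2 +34123, C/EBP: ggtcttagtctTTGCACAAgcaagagcaaa
Irs2 -25276, insulin response core: ggatttagcaaCAAAACAttcaggttataa
Irs2 -25276, insulin response core (second match): ggaaaaaaagcCAAAACAaatgtcatgagg
Irs2 -25276, HNF6/CUX2: taaaaaaggtcTATCGATtttttttaatgt
Irs2 -54078, insulin response core: tttcacaatcgTGTTTTGtaatgaatgtga
Foxo1 +22688, HNF6/CUX2: ttctagatgttTATTGATgtggttttaatt
Trib1 -120, FOX: ggcttcccaacTGTTTACacagcccgggct
Trib1 -120, C/EBP: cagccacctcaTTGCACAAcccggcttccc
The shared site 42978 bp downstream of the Irs2 TSS held both a FOX match, 4 bp from its centre, and a STAT/BCL6 match, 84 bp from it. The shared site at the Trib1 promoter held a C/EBP match at its centre and a FOX match 21 bp away. Irs2 had 8 of the 15 matches and 10 of the 33 sites. A match is a description of letters and does not show that the factor was bound.

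The 10 genes were set beside 35 other genes of the pathway, among them Igf1r, Mtor, Gsk3b and Ptpn1. All 35 had an NCoR peak in their window, beside 80.7% of all protein-coding genes, and 26 had a shared site, beside 52.9%. Of the 35, 14 were the nearest gene of at least 1 shared site, beside 20.9%, a count that likewise depends on the stretch nearest to each gene. Their medians were 9 NCoR peaks and 2 shared sites per window, or 3.35 and 0.647 per 100 kb, between those of the 10 genes and of all genes. Rptor, the adaptor of the mTORC1 kinase complex, had 9 shared sites in its window, or 1.81 per 100 kb, and was the nearest gene of 1. Ptpn1, the phosphatase that dephosphorylates the insulin receptor, had 7, or 2.83 per 100 kb, and was the nearest gene of 5. Igfbp1, a hepatic target of FOXO1, had 6 shared sites, or 2.93 per 100 kb, and was the nearest gene of 1. Trib2 had 2 shared sites in its window and was the nearest gene of 7 over the whole genome. Irs2 was above all 35 in shared sites per 100 kb. Tsc2, part of the complex that restrains mTORC1, had 9 NCoR peaks and no shared site in its window, and was the nearest gene of none of these peaks. Tsc1 and Gab1 also had no shared site.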

How the data were processed

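ChIP-seq was done on fed Bcl6 fl/fl liver with antibodies against SMRT, NCoR and HDAC3, 3 libraries each. The authors aligned single-end reads to mm10 with Bowtie, keeping uniquely mapped reads and 1 read per start position. Peaks were called by the authors with HOMER on the pooled libraries against input and filtered by the authors with DESeq2 over the single libraries (2-fold, and a false discovery threshold). The deposited lists hold positions in a fixed width (212 bp for SMRT and HDAC3, 228 bp for NCoR), with no height or score. A read mapping to several places was not kept, so repeats are under-represented, and library depth is not given in the sources used here, so list length cannot be told apart from depth or antibody strength.

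Gene bounds and TSSs of all basic transcripts came from GENCODE vM21 on GRCm38, the assembly mm10 names, and sequence from RefSeq's GRCm38.p6. Intergenic means outside protein-coding genes. As a check of positions, 0.623% of NCoR peaks had an HNF4 half-site in their central 50 bp, against 0.0768% of flanking windows at a distance of 2 kb. Centres within 200 bp were called overlapping, as in the study. Shares carry exact Clopper-Pearson 95% intervals (scipy 1.17.1), with pandas 2.3.3 and pysam 0.24.0. Peaks are not replicates and each list stands for 1 pooled group, so no test was run and values are set beside the whole list or all protein-coding genes. The scripts were tested on simulated positions. The 10 genes, the 35 further pathway genes and the motif strings were chosen with earlier results of these data known. Some of the further pathway genes are not reported singly here. All 10 genes are named. Of neighbours, the one taking the most NCoR peaks of a window is named, and others where a named site is nearest to them. Of sites, the nearest and farthest shared peak of a gene were named by rule, and the other sites, the 30-base sequences, the sites outside the windows and the further pathway genes were picked after their values were seen. Alternatives changed the window, the reach, the TSS set, the promoter and the motif window.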

Additional observations from a re-analysis of the deposited data

How the results depend on the processing

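The counts follow the window. With 50 kb on both sides of the genes there were 29 SMRT peaks and 20 shared sites. With 200 kb there were 70 SMRT peaks, 97 HDAC3 peaks, 56 shared sites and 39 shared sites nearest to the named gene. Gene bodies alone held 16 SMRT, 53 NCoR and 21 HDAC3 peaks and 12 shared sites, with 49 NCoR peaks and 10 shared sites nearest to the named gene. With genes of every annotated type, 40 NCoR peaks and 11 shared sites stayed with the named gene, and with promoters of 5000 bp to either side 21.4% of NCoR peaks were at promoters. These changes come from the construction of each alternative. Of 46 alternatives to the main counts and shares 31 moved them by less than 1.5 times or than their interval and 15 by more, and of 56 for single genes and motifs 45 and 11. STAT/BCL6 matches were found in 2.86% of peaks in the central 100 bp, beside 3.48% of all NCoR peaks, and with a reach of 400 bp Pik3ca gained a shared site. No paired analysis was possible because the peaks were called on pooled libraries, so that the files have no column for a single replicate. Positions alone set the limits: a peak below the authors' threshold is missing, depth may set which cofactor is called without its partner, and neither the strength of binding nor the effect on transcription of these genes was measured here.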
